A study of Mus musculus with 18 samples.

Results

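The genes described here are the 20 cytosolic aminoacyl-tRNA synthetases of the mouse and 15 genes of the amino acid response governed by the transcription factor ATF4, 35 genes of the 55029 listed in the count tables. They were taken by name, through the Ensembl identifier that carries each symbol. *Ddit3* has 2 identifiers, of which 1 holds 0 counts and was set aside. The synthetases are *Aars*, *Cars*, *Dars*, *Eprs*, *Farsa*, *Farsb*, *Gars*, *Hars*, *Iars*, *Kars*, *Lars*, *Mars1* (listed as *Mars*), *Nars*, *Qars*, *Rars*, *Sars*, *Tars*, *Vars*, *Wars* and *Yars*. The other genes are the stress regulators *Atf4*, *Atf5*, *Ddit3*, *Trib3*, *Chac1* and *Sesn2*, the enzymes *Asns*, *Psat1*, *Phgdh*, *Psph*, *Shmt2* and *Mthfd2*, and the transporters *Slc7a5*, *Slc3a2* and *Slc1a5*.

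RNA was sequenced from 18 libraries of mouse eosinophils, in 6 groups of 3 libraries. The cells were washed from the peritoneal cavity of C57BL/6 NJ.1638 mice with an *Il5* transgene, and cells that bound beads against Thy1.2 or B220 were taken out. They stayed for 18 h in DMEM with 10% fetal calf serum, unstimulated or with heat-inactivated *E. coli*, with IFN-γ at 50 ng/ml, with IFN-γ at 50 ng/ml and *E. coli* (the joint stimulus), or with IL-4 at 100 ng/ml. The age and sex of the mice are not given, every group carries the transgene, and cells that arose under raised IL-5 are a limit of all 6 groups as a model. The libraries form 2 sets that differ in gene list and file layout. A set of 12 holds *E. coli*, IFN-γ, both, and unstimulated libraries a to c. A set of 6 holds IL-4 and unstimulated libraries d to f, and each stimulus was set against the unstimulated libraries within its set. Counts on genes per library ran from 1523808 to 2734041 in the set of 12 and from 3625036 to 6482289 in the set of 6.

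A synthetase joins 1 amino acid to its tRNA, the step that feeds the ribosome. When amino acids run short or the endoplasmic reticulum is stressed, kinases phosphorylate eIF2, most translation slows, and ATF4 is translated more and raises genes for amino acid synthesis, amino acid uptake and many synthetases. *Wars*, the tryptophanyl-tRNA synthetase, is in addition a known target of IFN-γ in many cell types.

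The paper states that purity was checked by flow cytometry, and that the contaminating cells were mostly lymphocytes. Here the label eosinophil was checked on 10 marker genes fixed for it. Of these, 9 were above 3 counts in at least 1 library of the set of 12, where *Prg3*, a granule protein gene, was not, and 10 of 10 in the set of 6. *Epx*, the peroxidase gene, reached only 4 counts in the set of 12. The summed level of the 10 was 3842, 5139 and 3990.2 CPM in unstimulated libraries a to c, 3519, 3117 and 3533 with *E. coli*, 4071, 3605 and 4446 with IFN-γ and 3275, 2893 and 3125 with both. In the other set it was 5173, 6002 and 5293 CPM in unstimulated libraries d to f and 5031, 5234 and 5104 with IL-4. The most abundant was *Ccr3*, the eotaxin receptor, in the set of 12, and *Alox15*, a lipoxygenase, in the set of 6. In the set of 12 no count is above 4095, and *Ccr3* and *Alox15* reached 3576 and 3732 counts, so that their levels, their order and the sums there may be held down. *Ccr3* and *Alox15* with *Siglecf* make up most of the sums. *Siglecf* was at 952, 1167 and 942 CPM in a to c, 659, 622 and 626 with *E. coli*, 654, 534 and 689.9 with IFN-γ and 353, 322 and 371 with both, lower in all 9 stimulated libraries. By the test described below, of the 6 markers tested 1 rose and 2 fell with *E. coli*, 4 fell with IFN-γ, and 1 rose and 4 fell with both, and of 10 tested in the other set 4 rose and 1 fell with IL-4. Of all genes tested, 13.5% and 16.7% rose and fell in the first of these comparisons, 15.6% and 16.0% in the second, 23.9% and 25.2% in the third and 5.97% and 4.35% in the last.

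Levels are given in CPM, counts brought by TMM scaling to a common library total, and changes as log2 fold changes with an approximate standard error (SE), 3 libraries against 3. A gene is said to rise, fall or be called where the adjusted p over all genes tested is under 0.05. The paper speaks of biological replicates, and nothing states that the libraries of a group came from separate mice or cultures, so the p-values measure the spread between libraries, which may be technical. Unstimulated library e, with the most counts of the 18, stood apart from d and f, at a chi-square per gene (near 1 for counting error alone) of 23.7 and 21.96, beside 7.86 between d and f and at most 6.04 within the other groups. In these bulk samples, fewer cells of a type and less RNA per cell cannot be told apart. Of the 35 genes, 32 had enough counts to be tested in the set of 12 and 31 in the set of 6. *Chac1*, *Phgdh* and *Psph* were too low in both sets and *Asns* in the set of 6. A gene that passed only through a group where it is high had to differ, which is a limit of the counts over tested genes.

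With *E. coli*, 7 of the 32 genes rose and 3 fell, where 13.5% of all 9883 genes tested rose and 16.7% fell. With IFN-γ, 11 rose and 3 fell, against 15.6% and 16.0% of all genes. Under the joint stimulus 15 rose and 4 fell, against 23.9% and 25.2%. With IL-4 none of the 31 was called higher by edgeR and 4 fell, against 5.97% and 4.35% of the 10556 genes tested there. For the direction with 0 calls, 2 of the genes had an unadjusted p under 0.05 and DESeq2 called 0. The count of 4 changed without IL-4 library 1 (0), IL-4 library 2 (0), IL-4 library 3 (1), unstimulated library e (6) or unstimulated library f (3), and the count of 0 without unstimulated library e (2). The count of 3 with *E. coli* changed without *E. coli* library 1 (1), *E. coli* library 2 (1), IFN-γ library 1 (2), IFN-γ library 2 (2), IFN-γ library 3 (2), unstimulated library a (2), unstimulated library b (1) or unstimulated library c (2). The counts in the set of 12 share the unstimulated libraries a to c. The median log2 fold change of the tested genes was 0.22 with *E. coli*, 0.35 with IFN-γ, 0.36 with both and -0.29 with IL-4, beside -0.02, -0.03, -0.04 and 0.00 over all genes tested.

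**Figure D1:**
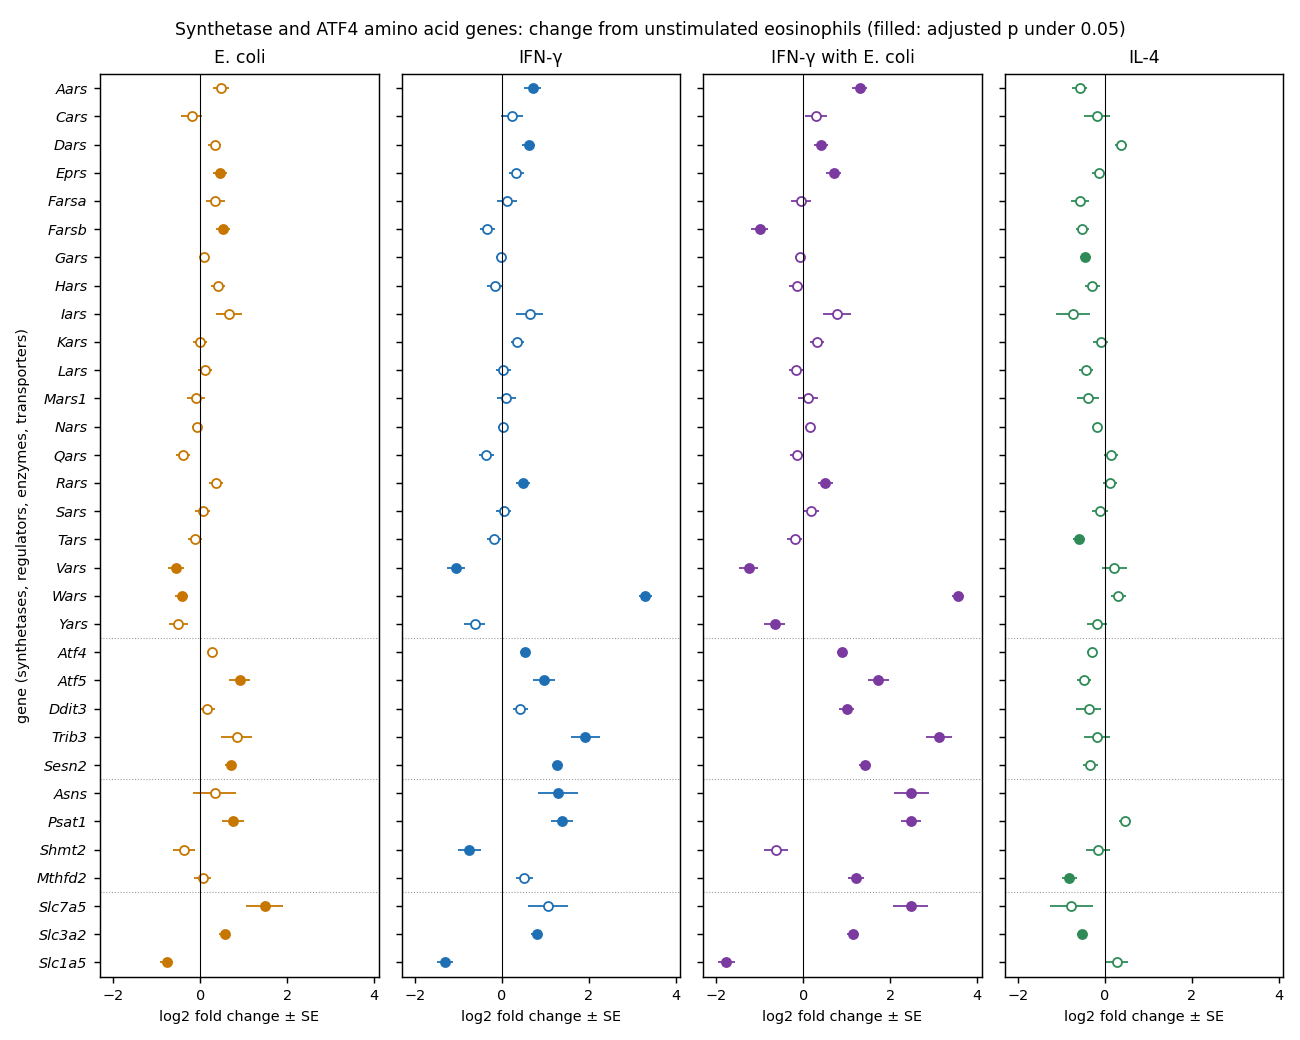
Log2 fold change of each tested gene with each stimulus against the unstimulated libraries of its set (horizontal axis, point with SE, 3 libraries against 3), with filled points at an adjusted p under 0.05. *Wars* stands at 3.30 with IFN-γ and 3.55 with both stimuli, while the other 19 synthetases lie between -1.25 and 1.29 with both.

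*Wars* joins tryptophan to its tRNA. Its mRNA was at 46.6, 66.5 and 59.5 CPM in unstimulated libraries a to c, 37.9, 39.8 and 49.9 with *E. coli*, 576, 550.01 and 559.8 with IFN-γ, and 735, 619 and 652 with both. The 6 libraries with IFN-γ in the medium stood far above the 6 without it and did not overlap them. In the other set it was at 39.7, 50.7 and 34.2 CPM in unstimulated libraries d to f and 56.7, 50.5 and 46.9 with IL-4, and these groups overlapped. The log2 fold change was 3.30 (SE 0.14, adjusted p = 5.41e-12) with IFN-γ and 3.55 (SE 0.14, adjusted p = 6.38e-13) with both stimuli, which is 9.87-fold and 11.7-fold. The *Wars* counts reached 27.6% of a ceiling of 4096 in the set of 12, so these changes may be held down. Ranked from the highest rise down, *Wars* was number 38 of 9883 genes with IFN-γ and number 79 with both. With *E. coli* alone it fell, with a log2 fold change of -0.43 (SE 0.15, adjusted p = 0.0386), although the highest *E. coli* library was above the lowest unstimulated one. That call was lost without *E. coli* library 1 (-0.35), *E. coli* library 2 (-0.37), IFN-γ library 1 (-0.42), IFN-γ library 2 (-0.41), IFN-γ library 3 (-0.41), unstimulated library b (-0.30) or unstimulated library c (-0.39), where the log2 fold change without that library is in parentheses, and with no filter on low counts (-0.39) or only the 6 libraries compared (-0.40). IL-4 gave 0.31 (SE 0.18, adjusted p = 0.307), short of the threshold.

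None of the 19 other synthetases came near these changes. With IFN-γ the next highest was *Aars*, the alanyl-tRNA synthetase, at 0.71, and with both stimuli again *Aars* at 1.29. The lowest was *Vars*, the valyl-tRNA synthetase, at -1.05 and -1.25. The median log2 fold change of the 19 synthetases other than *Wars* was 0.08 with *E. coli*, 0.04 with IFN-γ, 0.10 with both and -0.19 with IL-4, near the medians of all genes in the set of 12. The difference in log2 CPM between *Wars* and the median of these 19, taken within each library, was 0.22 to 0.79 in unstimulated libraries a to c, -0.14 to 0.19 with *E. coli*, 3.54 to 3.78 with IFN-γ and 3.94 to 4.13 with both. In the other set it was -0.11 to 0.34 unstimulated and 0.53 to 0.85 with IL-4. How counts compare between genes is not known here, so the change of this difference between groups is what can be read. No test was made between genes.

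The medians of the ATF4 genes with IFN-γ and with both stimuli lay between those of the 19 synthetases and the values of *Wars*. The median log2 fold change of the 12 tested of 15 was 0.45 with *E. coli* alone, 0.89 under IFN-γ and 1.32 under both, and that of the 11 tested with IL-4 was -0.33. With IFN-γ the highest of them was *Trib3* at 1.92, and with both stimuli *Trib3* at 3.12, beside 3.30 and 3.55 for *Wars*. With *E. coli* alone, 5 of the 12 rose and 1, *Slc1a5*, fell, beside 13.5% and 16.7% of all genes, and *Wars* fell. Over the 12 libraries of the set, which fall into 4 groups by stimulus, Pearson's r of log2 CPM with *Wars* was highest for *Gbp4* (0.996), *Igtp* (0.996), *Nampt* (0.994), *Nub1* (0.993) and *Tapbpl* (0.990). *Gbp4* and *Igtp* encode GTPases, *Nampt* an enzyme of NAD synthesis, and *Tapbpl* a protein that edits the peptides on MHC class I. Among the genes described here r was highest for *Trib3* (0.868) and *Atf4* (0.847). The median r was 0.149 over the 19 other synthetases, 0.790 over the 12 tested ATF4 genes and -0.0764 over all genes tested.

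Of the 19 synthetases other than *Wars*, 2 rose and 1 fell with *E. coli*, 3 rose and 1 fell with IFN-γ, and 4 rose and 3 fell with both. In these comparisons 13.5%, 15.6% and 23.9% of all genes rose, and 16.7%, 16.0% and 25.2% fell. The counts do not set these 19 apart from other genes in how many rose. Whether they differ from other genes in how many fell was not tested. *Aars* rose with the stimuli that held IFN-γ. It was at 29.4, 38.03 and 36.8 CPM in unstimulated libraries a to c, 42.02, 42.8 and 60.2 with *E. coli*, 52.1, 68.7 and 47.1 with IFN-γ, and 76.7, 78.9 and 97.6 with both. Each of the 9 stimulated libraries was above the 3 unstimulated ones, and the joint libraries were above all others. Its change was 0.71 (SE 0.19, adjusted p = 0.00716) with IFN-γ, 1.29 (SE 0.18, adjusted p = 1.08e-05) with both and 0.48 (SE 0.18, adjusted p = 0.0573) with *E. coli* on the log2 scale. The IFN-γ call was lost without unstimulated library a (0.59). *Aars* with *E. coli* was short of the threshold and passed it without *E. coli* library 1 (0.57), IFN-γ library 2 (0.50), IFN-γ library 3 (0.50), joint library 1 (0.50) or joint library 3 (0.50).

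*Dars* and *Rars*, which charge aspartate and arginine, are held with *Eprs* in the multi-synthetase complex. *Dars* was at 52.5, 62.7 and 56.99 CPM in unstimulated libraries a to c, 77.9, 65.2 and 72.6 with *E. coli*, 74.4, 87.7 and 101 with IFN-γ, and 76.7, 64.1 and 87.05 with both. Its 9 stimulated libraries were all above the unstimulated ones, and it rose with IFN-γ by 0.62 (SE 0.15, adjusted p = 0.00326) and with both by 0.41 (SE 0.15, adjusted p = 0.031) on the log2 scale. *Rars* was at 42.1, 27.9 and 33.5 CPM in unstimulated libraries a to c, 47.3, 44.5 and 43.4 with *E. coli*, 48.7, 47.2 and 52.3 with IFN-γ, and 48.9, 43.8 and 57.4 with both. Again the 9 stimulated libraries were the higher, with log2 fold changes of 0.49 (SE 0.16, adjusted p = 0.0265) with IFN-γ and 0.51 (SE 0.16, adjusted p = 0.0149) with both. The *Dars* call with both stimuli was lost without joint library 1 (0.42), joint library 3 (0.31), unstimulated library a (0.34) or unstimulated library c (0.41), and also with no filter on low counts, with at least 10 counts in every library and with only the 6 libraries compared (0.41, 0.34 and 0.39). The calls of *Rars* were lost without IFN-γ library 1 (0.51), IFN-γ library 3 (0.47), unstimulated library b (0.41) or unstimulated library c (0.46) with IFN-γ, and without joint library 3 (0.41) or unstimulated library b (0.42) with both.

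*Eprs* charges both glutamate and proline. It was at 64.1, 59.6 and 79.7 CPM in unstimulated libraries a to c, 87.3, 104 and 90.4 with *E. coli*, 95.7, 85.6 and 76.5 with IFN-γ, and 139, 111 and 82.4 with both. The *E. coli* and joint libraries lay above the unstimulated ones, and the IFN-γ libraries overlapped them. It rose with *E. coli* by 0.46 (SE 0.16, adjusted p = 0.038) and with both by 0.70 (SE 0.17, adjusted p = 0.00189) on the log2 scale. The *E. coli* call was lost without *E. coli* library 2 (0.39), unstimulated library a (0.42) or unstimulated library b (0.41), and was 0.43 and not called with at least 10 counts in every library.

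*Farsb*, the beta subunit of the phenylalanyl-tRNA synthetase, went both ways. It was at 21.98, 27.3 and 26.8 CPM in unstimulated libraries a to c, 39.2, 34.8 and 35.1 with *E. coli*, 17.4, 19.5 and 23.5 with IFN-γ, and 12.4, 13.1 and 11.9 with both. The *E. coli* libraries were the highest, the IFN-γ libraries overlapped the unstimulated ones, and the joint libraries were the lowest. It changed by 0.53 (SE 0.16, adjusted p = 0.0177) with *E. coli* and by -1.004 (SE 0.20, adjusted p = 0.000422) with both on the log2 scale, and IFN-γ gave -0.33 (SE 0.18, adjusted p = 0.181). The *E. coli* call was lost without *E. coli* library 1 (0.48) or unstimulated library a (0.43) and under DESeq2 (0.54). *Farsa*, the alpha subunit of the same enzyme, was called with none of the 4 stimuli (log2 fold change 0.34 with *E. coli* and -0.05 with both). Exons of *Sgpp2* overlap *Farsb* on the opposite strand.

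*Vars* and *Yars*, which charge valine and tyrosine, were lower. *Vars* was at 29.4, 28.5 and 23.95 CPM in unstimulated libraries a to c, 18.8, 16.05 and 21.2 with *E. coli*, 13.4, 13.3 and 12.4 with IFN-γ, and 8.76, 13.7 and 11.2 with both. All 9 stimulated libraries were below the unstimulated ones. It fell, with a log2 fold change of -0.56 (SE 0.19, adjusted p = 0.0297) with *E. coli*, -1.05 (SE 0.21, adjusted p = 0.000699) with IFN-γ and -1.25 (SE 0.22, adjusted p = 0.000104) with both. The *E. coli* call was lost without *E. coli* library 1 (-0.56), *E. coli* library 2 (-0.44), unstimulated library a (-0.49) or unstimulated library b (-0.51), under DESeq2 (-0.55) and with no filter on low counts (-0.52). *Yars* was at 19.003, 22.2 and 21.5 CPM in unstimulated libraries a to c, 16.3, 13.4 and 14.3 with *E. coli*, 18.5, 12.8 and 8.50 with IFN-γ, and 10.96, 15.3 and 12.5 with both. Its 9 stimulated libraries were also the lower, and the joint stimulus alone was called, at -0.66 (SE 0.25, adjusted p = 0.0343). That call was lost without joint library 1 (-0.54), joint library 3 (-0.61), unstimulated library b (-0.60) or unstimulated library c (-0.63), under DESeq2 (-0.64) and with no filter on low counts (-0.66).

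With IL-4, the synthetases that fell were *Gars* and *Tars*, which charge glycine and threonine. *Gars* was at 146, 159.7 and 152 CPM in unstimulated libraries d to f and 104, 109 and 123 with IL-4, and *Tars* at 64.7, 64.9 and 53.6 CPM in unstimulated libraries d to f and 39.8, 40.4 and 41.2 with IL-4. In both genes the IL-4 libraries lay below the unstimulated ones. On the log2 scale the change was -0.45 (SE 0.12, adjusted p = 0.0415) for *Gars* and -0.59 (SE 0.14, adjusted p = 0.0254) for *Tars*. The *Gars* call was lost without IL-4 library 1 (-0.39), IL-4 library 2 (-0.43), IL-4 library 3 (-0.53) or unstimulated library f (-0.46), and the *Tars* call without IL-4 library 1 (-0.57), IL-4 library 2 (-0.60), IL-4 library 3 (-0.62) or unstimulated library d (-0.56). None of the 19 synthetases other than *Wars* was called higher with IL-4 by edgeR or DESeq2, and 1 had an unadjusted p under 0.05 in that direction. That gene is *Dars*, at 51.4, 58.1 and 53.98 CPM in unstimulated libraries d to f and 72.1, 69.3 and 70.8 with IL-4, where the groups did not overlap and the log2 fold change was 0.37 (SE 0.13, adjusted p = 0.0996), which passed the threshold in the model of all 18 libraries (0.38), with the 6 unstimulated libraries as one group (0.55) and without unstimulated library e (0.42). *Farsb* at -0.51 (SE 0.15, adjusted p = 0.051) with IL-4 passed it under DESeq2's size factors (-0.52), in the model of all 18 libraries (-0.50) and without that library (-0.55). *Aars* was at 29.99, 34.3 and 36.997 CPM in unstimulated libraries d to f and 23.2, 19.8 and 25.1 with IL-4, with the IL-4 libraries the lower, at -0.58 (SE 0.17, adjusted p = 0.054), and passed the threshold in the model of all 18 libraries (-0.57) and without unstimulated library d (-0.66). *Lars* at -0.44 (SE 0.16, adjusted p = 0.109) passed it in that model (-0.43).

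The remaining 10 synthetases, *Cars*, *Farsa*, *Hars*, *Iars*, *Kars*, *Lars*, *Mars1*, *Nars*, *Qars* and *Sars*, were called with none of the 4 stimuli. With IFN-γ their log2 fold changes ran from -0.36 for *Qars*, which charges glutamine, to 0.64 for *Iars*, which charges isoleucine. With both stimuli they ran from -0.17 for *Lars* to 0.77 for *Iars*. *Iars* with both was near the threshold (adjusted p = 0.0522) and passed it without IFN-γ library 2 (0.79), IFN-γ library 3 (0.79), joint library 1 (0.996) or unstimulated library b (1.04). *Nars* and *Gars*, which charge asparagine and glycine, were at 0.02 (SE 0.11) and -0.01 (SE 0.11) with IFN-γ.

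**Figure D2:**
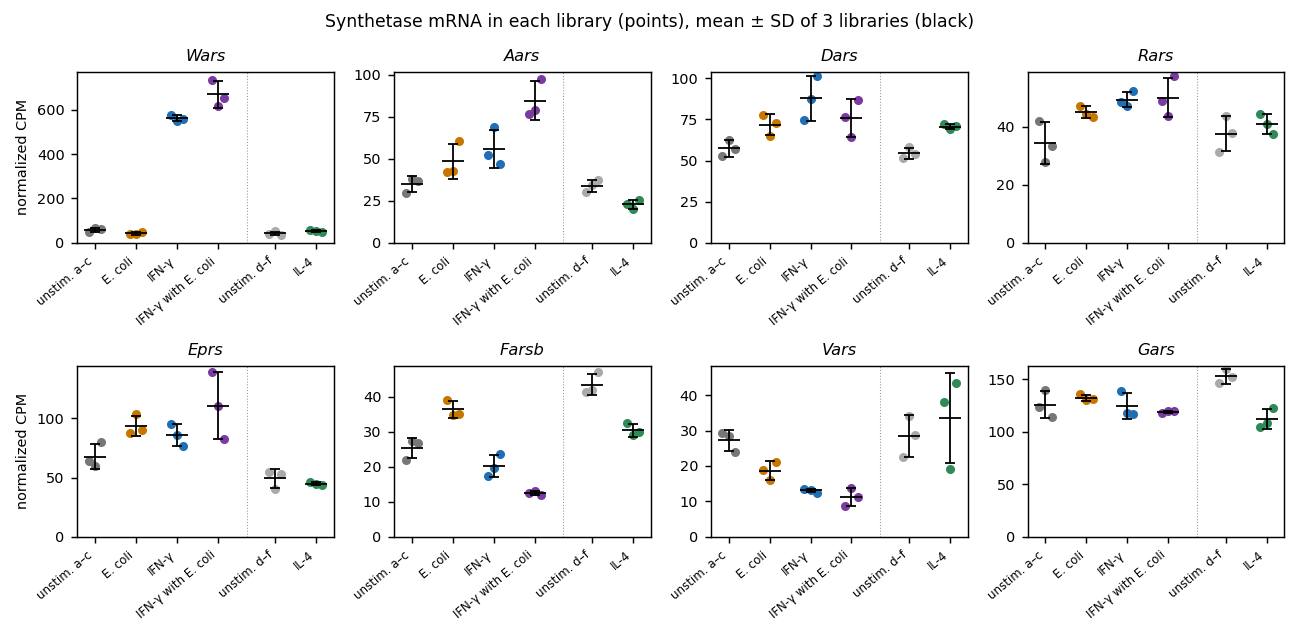
Normalized CPM (vertical axis) of 8 synthetases in each of the 18 libraries, by stimulus, as points with the mean and SD of 3 libraries in black, and with the set of 6 libraries right of the dotted line. *Wars* in the 6 libraries with IFN-γ lies between 550.01 and 735 CPM, above every library without it.

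Among the ATF4 genes the regulators come first. *Atf4* itself was at 448, 517 and 453 CPM in unstimulated libraries a to c, 582, 552 and 574 with *E. coli*, 645, 656 and 736 with IFN-γ, and 849, 869 and 901 with both. The unstimulated libraries were the lowest and the joint libraries the highest, with no overlap between unstimulated and stimulated libraries. It rose by 0.52 (SE 0.10, adjusted p = 0.000734) with IFN-γ and by 0.89 (SE 0.10, adjusted p = 1.09e-06) with both on the log2 scale, and was at 0.27 (SE 0.10, adjusted p = 0.0552) with *E. coli*, which passed the threshold without IFN-γ library 3 (0.29), joint library 3 (0.29) or unstimulated library b (0.36). In the other set *Atf4* was at 984, 879 and 852 CPM in unstimulated libraries d to f and 744, 784 and 692 with IL-4. There the IL-4 libraries were the lower, at -0.29 (SE 0.11, adjusted p = 0.136), not called except without unstimulated library e (-0.31). The unstimulated means of the sets differ, 473 ± 38.6 and 905 ± 70.1 CPM (mean ± SD, n = 3).

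*Atf5*, a related factor whose mRNA is also translated more when eIF2 is phosphorylated, was at 26.5, 25.98 and 29.3 CPM in unstimulated libraries a to c, 49.4, 47.5 and 57.3 with *E. coli*, 64.9, 65.1 and 29.4 with IFN-γ, and 96.4, 111 and 63.97 with both. All 9 stimulated libraries were above the unstimulated ones. It rose on the log2 scale by 0.90 (SE 0.24, adjusted p = 0.00818) with *E. coli*, 0.98 (SE 0.25, adjusted p = 0.00555) with IFN-γ and 1.73 (SE 0.24, adjusted p = 8.86e-06) with both. Exons of *Il4i1*, an amino acid oxidase, and *Nup62* overlap *Atf5* on the opposite strand. *Ddit3*, which encodes the stress factor CHOP, was at 22.7, 22.8 and 26.02 CPM in unstimulated libraries a to c, 25.3, 31.1 and 23.2 with *E. coli*, 26.9, 34.3 and 35.3 with IFN-γ, and 48.9, 47.1 and 47.5 with both. The joint libraries stood above the rest of the set, and the joint change alone was called, at 0.997 (SE 0.17, adjusted p = 6.78e-05).

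*Trib3*, a pseudokinase gene that ATF4 raises and whose product holds ATF4 back, was low in unstimulated cells. It was at 3.73, 3.80 and 2.89 CPM in unstimulated libraries a to c, 5.71, 5.35 and 7.90 with *E. coli*, 12.9, 15.9 and 10.5 with IFN-γ, and 35.8, 33.4 and 21.8 with both. The joint libraries were the highest and the IFN-γ libraries next, and neither overlapped the unstimulated ones. It rose by 1.92 (SE 0.33, adjusted p = 0.000201) with IFN-γ and 3.12 (SE 0.30, adjusted p = 7.67e-08) with both on the log2 scale, and *E. coli* gave 0.84 (SE 0.36, adjusted p = 0.0874), not called. *Sesn2*, which encodes a leucine sensor upstream of mTORC1, was at 51.05, 51.3 and 67.3 CPM in unstimulated libraries a to c, 96.7, 88.6 and 91.3 with *E. coli*, 138, 148 and 127 with IFN-γ, and 158, 163 and 135 with both. Its groups did not overlap the unstimulated one. It rose by 0.70 (SE 0.13, adjusted p = 0.000483) with *E. coli*, 1.28 (SE 0.13, adjusted p = 5.09e-07) with IFN-γ and 1.42 (SE 0.13, adjusted p = 5.38e-08) with both on the log2 scale. None of the 5 tested regulators was called with IL-4 by edgeR or DESeq2, where 2 had an unadjusted p under 0.05 in the lower direction and 0 in the higher. *Chac1*, which encodes an enzyme that breaks down glutathione, was too low to be tested, at 2.43 ± 0.522 CPM unstimulated and 2.40 ± 1.57 with both (mean ± SD, n = 3).

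Of the enzymes, *Asns* makes asparagine and *Psat1* takes part in serine synthesis. *Asns* was at 2.61, 0.634 and 2.89 CPM in unstimulated libraries a to c, 2.86, 3.01 and 2.47 with *E. coli*, 7.28, 3.08 and 6.54 with IFN-γ, and 14.6, 13.7 and 9.89 with both. The IFN-γ and joint libraries were above the unstimulated ones, and the *E. coli* libraries overlapped them. Its log2 fold change was 1.30 (SE 0.47, adjusted p = 0.0417) with IFN-γ and 2.49 (SE 0.41, adjusted p = 6.23e-05) with both. Unstimulated libraries a to c held only 7, 1 and 7 counts of *Asns*, so the sizes of these changes are uncertain. The IFN-γ call was lost without *E. coli* library 1 (1.30), IFN-γ library 1 (1.05), IFN-γ library 3 (1.20), joint library 2 (1.31), unstimulated library a (1.46) or unstimulated library b (1.02), and under DESeq2 (1.36). In the set of 6 *Asns* was too low to be tested, at 1.67, 1.66 and 3.21 CPM in unstimulated libraries d to f and 1.52, 0.166 and 1.30 with IL-4. *Psat1* was at 6.33, 7.61 and 11.6 CPM in unstimulated libraries a to c, 13.5, 13.04 and 17.3 with *E. coli*, 22.4, 23.6 and 20.9 with IFN-γ, and 36.5, 49.9 and 55.4 with both. Its stimulated libraries were all above the unstimulated ones in this set.

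*Psat1* rose by 0.75 (SE 0.26, adjusted p = 0.0344) with *E. coli*, 1.38 (SE 0.25, adjusted p = 0.000372) with IFN-γ and 2.47 (SE 0.23, adjusted p = 6.65e-08) with both on the log2 scale. The *E. coli* call was lost without *E. coli* library 1 (0.81), *E. coli* library 3 (0.64), unstimulated library a (0.54) or unstimulated library b (0.72), and under DESeq2 (0.77). In the other set *Psat1* was at 48.05, 47.5 and 41.1 CPM in unstimulated libraries d to f and 65.2, 65.5 and 58.6 with IL-4, and the IL-4 libraries were the higher at 0.47 (SE 0.14, adjusted p = 0.0579), not called, though past the threshold without unstimulated library e (0.51), with at least 10 counts in every library (0.49) and in the model of all 18 libraries (0.48). The unstimulated levels of the sets were far apart, 8.50 ± 2.73 and 45.6 ± 3.85 CPM (mean ± SD, n = 3). The other serine synthesis genes were barely counted. *Phgdh* was at 0.460 ± 0.402 CPM unstimulated and 1.41 ± 0.735 with both, with at most 3 counts in each unstimulated library a to c. *Psph* was at 4.47 ± 1.74 CPM unstimulated and 1.29 ± 0.184 with both, where each library held at most 3 counts. The observed level was at least 2.30-fold lower against the mean floor of 3 counts per library, and this change was not tested.

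*Mthfd2* and *Shmt2* are enzymes of mitochondrial folate metabolism, and they parted. *Mthfd2* was at 21.6, 18.4 and 20.6 CPM in unstimulated libraries a to c, 18.4, 24.4 and 20.2 with *E. coli*, 34.7, 26.1 and 26.8 with IFN-γ, and 53.3, 38.4 and 52.1 with both. The joint libraries were the highest, and the *E. coli* libraries overlapped the unstimulated ones. It rose with both stimuli by 1.22 (SE 0.19, adjusted p = 2.70e-05), and IFN-γ gave 0.52 (SE 0.20, adjusted p = 0.0505), just short of the threshold, which it passed without *E. coli* library 2 (0.53), IFN-γ library 2 (0.63), joint library 1 (0.55), joint library 2 (0.53) or joint library 3 (0.54). *Shmt2* was at 17.5, 17.1 and 13.2 CPM in unstimulated libraries a to c, 9.38, 14.04 and 13.3 with *E. coli*, 10.6, 10.3 and 7.19 with IFN-γ, and 8.03, 8.77 and 13.8 with both. It fell with IFN-γ, with a log2 fold change of -0.74 (SE 0.27, adjusted p = 0.0444), and both stimuli gave -0.64 (SE 0.28, adjusted p = 0.0637), not called, though past the threshold without joint library 3 (-0.89) or unstimulated library c (-0.76), with at least 10 counts in every library (-0.70) and with the 6 unstimulated libraries as one group (-0.99). The call with IFN-γ was lost without *E. coli* library 2 (-0.74), *E. coli* library 3 (-0.74), IFN-γ library 1 (-0.83), IFN-γ library 2 (-0.78), IFN-γ library 3 (-0.58), joint library 1 (-0.72), joint library 2 (-0.74), unstimulated library a (-0.65) or unstimulated library b (-0.68), and under DESeq2 (-0.73), DESeq2's size factors (-0.73) and no filter on low counts (-0.71).

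With IL-4, *Mthfd2* was the enzyme that fell. It was at 23.1, 24.2 and 23.97 CPM in unstimulated libraries d to f and 13.7, 11.96 and 15.03 with IL-4, and the groups did not overlap. Its log2 fold change was -0.81 (SE 0.18, adjusted p = 0.0168), and the call was lost without IL-4 library 1 (-0.81) or IL-4 library 2 (-0.73).

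The transporters were *Slc7a5* and *Slc3a2*, the light and heavy chain of the carrier for leucine and other large neutral amino acids, and *Slc1a5*, a carrier for glutamine. *Slc7a5* was at 3.73, 0.634 and 4.54 CPM in unstimulated libraries a to c, 10.6, 7.36 and 9.87 with *E. coli*, 10.6, 4.61 and 5.23 with IFN-γ, and 14.6, 17.5 and 22.4 with both. All 9 stimulated libraries were above the unstimulated ones, and the joint libraries were the highest of the set. It rose by 1.48 (SE 0.42, adjusted p = 0.0112) with *E. coli* and 2.47 (SE 0.40, adjusted p = 4.92e-05) with both on the log2 scale, and IFN-γ gave 1.06 (SE 0.46, adjusted p = 0.0904), not called. Unstimulated libraries a to c held only 10, 1 and 11 counts of *Slc7a5*, so the sizes of these changes are uncertain. *Slc3a2* was at 630.1, 838 and 754 CPM in unstimulated libraries a to c, 1094, 963 and 1222 with *E. coli*, 1314, 1183 and 1376 with IFN-γ, and 1686, 1501 and 1719 with both. The groups lay in the order unstimulated, *E. coli*, IFN-γ and both, by mean, and the stimulated groups did not overlap the unstimulated one. It rose by 0.56 (SE 0.13, adjusted p = 0.00235), 0.80 (SE 0.13, adjusted p = 8.80e-05) and 1.14 (SE 0.13, adjusted p = 6.61e-07) on the log2 scale. Its counts reached 70.3% of a ceiling of 4096 in this set, and after the correction for it, chosen after seeing the data, these values were 0.90, 1.01 and 1.46.

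*Slc3a2* fell with IL-4. It was at 1707, 1965 and 1573 CPM in unstimulated libraries d to f and 1190.1, 1225 and 1251 with IL-4, with the IL-4 libraries below the unstimulated ones. The log2 fold change was -0.52 (SE 0.11, adjusted p = 0.0174), and the call was lost without IL-4 library 1 (-0.49), IL-4 library 2 (-0.53) or IL-4 library 3 (-0.55). The unstimulated means of the sets were 741 ± 105 and 1748 ± 199 CPM (mean ± SD, n = 3).

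*Slc1a5* moved against the other transporters in the set of 12. It was at 55.1, 60.8 and 44.2 CPM in unstimulated libraries a to c, 33.4, 28.1 and 31.6 with *E. coli*, 20.7, 23.1 and 20.3 with IFN-γ, and 14.6, 13.1 and 19.1 with both. The unstimulated libraries were the highest and the joint ones the lowest by mean, and all 9 stimulated libraries were below the unstimulated ones. It fell, with a log2 fold change of -0.78 (SE 0.16, adjusted p = 0.00104) with *E. coli*, -1.31 (SE 0.18, adjusted p = 1.33e-05) with IFN-γ and -1.77 (SE 0.19, adjusted p = 3.58e-07) with both. With IL-4 it was at 0.28 (SE 0.25, adjusted p = 0.532), and the groups overlapped.

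Several calls were lost when the 6 unstimulated libraries, whose levels of *Atf4*, *Psat1* and *Slc3a2* differ between the sets, were taken as one group. The direction turned for *Farsb* (-0.19), *Psat1* (-1.26) and *Slc3a2* (-0.47) with *E. coli*, for *Atf4* (-0.27), *Psat1* (-0.63) and *Slc3a2* (-0.21) with IFN-γ and for *Slc3a2* with IL-4 (0.10). Calls with *E. coli* were lost in their own direction for *Wars* (-0.39), *Atf5* (0.19), *Slc7a5* (0.84) and *Slc1a5* (-0.46), and with IFN-γ for *Rars* (0.25), *Atf5* (0.26) and *Asns* (1.14). With both they were lost for *Dars* (0.28), *Rars* (0.29), *Yars* (-0.58), *Atf4* (0.12), *Psat1* (0.48) and *Slc3a2* (0.15), and with IL-4 for *Gars* (-0.13), *Tars* (-0.29) and *Mthfd2* (-0.52). *Wars* with IFN-γ was 3.35 and with both 3.63 in this comparison.

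**Figure D3:**
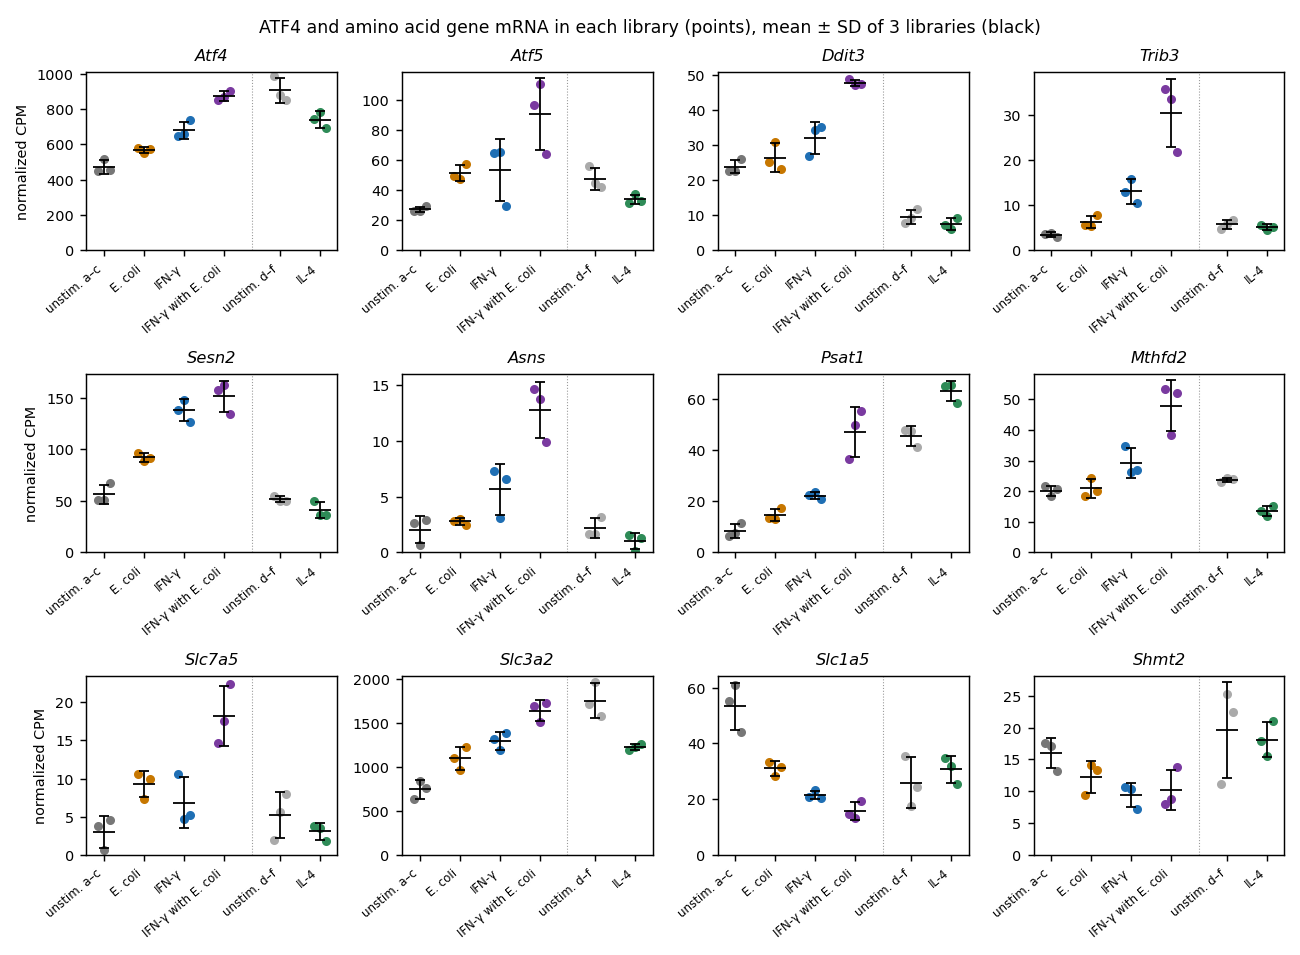
Normalized CPM (vertical axis) of 12 ATF4 and amino acid genes in each of the 18 libraries, by stimulus, as points with the mean and SD of 3 libraries in black, and with the set of 6 libraries right of the dotted line. *Psat1* lies near 8.50 CPM in unstimulated libraries a to c and near 45.6 in d to f.

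The joint stimulus was also compared with each stimulus alone. Against IFN-γ alone, 9 of the 32 genes were higher and 1 was lower, where 6.25% of all genes were higher and 5.98% lower. The higher ones were *Aars* and 8 ATF4 genes, with *Slc7a5* at 1.41 (SE 0.37, adjusted p = 0.0161), *Trib3* at 1.19 (SE 0.25, adjusted p = 0.00321), *Asns* at 1.19 (SE 0.37, adjusted p = 0.0394) and *Psat1* at 1.08 (SE 0.21, adjusted p = 0.00172). *Atf5*, *Mthfd2*, *Ddit3* and *Atf4* followed at 0.75, 0.70, 0.57 and 0.36. *Farsb* was the one that was lower, at -0.67 (SE 0.21, adjusted p = 0.0463), and *Wars* at 0.25 (SE 0.12, adjusted p = 0.197) was not called. The median over the 12 tested ATF4 genes was 0.64, over the 19 other synthetases 0.00 and over all genes 0.01. Leaving out 1 library in turn ended 8 of these 10 calls in at least 1 case, and the count of 10 calls changed without *E. coli* library 1 (8), *E. coli* library 2 (8), *E. coli* library 3 (9), IFN-γ library 1 (5), IFN-γ library 2 (4), IFN-γ library 3 (4), joint library 1 (4), joint library 2 (4), joint library 3 (5) or unstimulated library c (9). The calls of *Trib3* and *Psat1* held without any 1 library. DESeq2 did not call *Farsb* (-0.67), *Ddit3* (0.58) and *Asns* (1.20) here.

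The libraries whose absence ended these calls were, for *Aars*, IFN-γ library 1 (0.53), IFN-γ library 3 (0.48), joint library 2 (0.63) or joint library 3 (0.46), for *Atf4* IFN-γ library 1 (0.32), IFN-γ library 2 (0.33), joint library 1 (0.38), joint library 2 (0.36) or joint library 3 (0.33), and for *Atf5* IFN-γ library 3 (0.48), joint library 1 (0.71) or joint library 2 (0.57). For *Ddit3* they were IFN-γ library 1 (0.45), IFN-γ library 2 (0.62), joint library 1 (0.56), joint library 2 (0.58) or joint library 3 (0.57), for *Asns* *E. coli* library 1 (1.19), *E. coli* library 2 (1.19), IFN-γ library 1 (1.44), IFN-γ library 2 (0.86), IFN-γ library 3 (1.31), joint library 1 (1.09) or joint library 2 (1.12), and for *Mthfd2* IFN-γ library 2 (0.61), IFN-γ library 3 (0.65), joint library 1 (0.62) or joint library 3 (0.62). For *Slc7a5* they were IFN-γ library 2 (1.16), IFN-γ library 3 (1.27) or joint library 3 (1.23), and for *Farsb* *E. coli* library 1 (-0.68), *E. coli* library 2 (-0.68), *E. coli* library 3 (-0.68), IFN-γ library 1 (-0.77), IFN-γ library 2 (-0.71), IFN-γ library 3 (-0.56), joint library 1 (-0.67), joint library 2 (-0.72), joint library 3 (-0.65) or unstimulated library c (-0.68).

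Against *E. coli* alone, 12 of 32 were higher and 4 lower under the joint stimulus, where 17.5% and 15.3% of all genes were. *Wars* was highest among them at 3.98 (SE 0.14, adjusted p = 6.71e-13), then *Trib3* at 2.28 (SE 0.26, adjusted p = 1.65e-06), *Asns* at 2.16 (SE 0.39, adjusted p = 0.000251) and *Psat1* at 1.71 (SE 0.21, adjusted p = 3.72e-06). The lower ones were *Farsb* at -1.53 (SE 0.19, adjusted p = 4.44e-06), *Slc1a5* at -0.99 (SE 0.20, adjusted p = 0.000748), *Vars* at -0.70 (SE 0.23, adjusted p = 0.0236) and *Hars*, which charges histidine, at -0.56 (SE 0.17, adjusted p = 0.0199). The median over the ATF4 genes was 0.83, over the 19 other synthetases 0.11 and over all genes -0.02. The *Vars* call was lost without *E. coli* library 1 (-0.69), *E. coli* library 3 (-0.60), joint library 1 (-0.55) or joint library 3 (-0.69), and the *Hars* call without *E. coli* library 3 (-0.44), joint library 2 (-0.47) or joint library 3 (-0.49). *Slc7a5* (0.99) and *Atf5* (0.83) were also called, and these calls were lost without *E. coli* library 2 (0.82), joint library 2 (1.01) or joint library 3 (0.81) for *Slc7a5* and without joint library 2 (0.64) for *Atf5*.

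Whether the joint effect departed from the sum of the single log2 effects was tested as an interaction. It was called for 1 of 32 genes, *Farsb*, at -1.20 (SE 0.27, adjusted p = 0.0129), where 2.58% of all genes were called with a positive and 2.04% with a negative departure. No positive departure was called by edgeR, 3 had an unadjusted p under 0.05, and DESeq2 called 1. *Wars* was at 0.68 (SE 0.19, adjusted p = 0.0507), so that its departure was short of the threshold, and it passed under DESeq2 (0.67), with at least 10 counts in every library (0.69), after a correction of the counts for a ceiling (0.71, chosen after seeing the data) and without *E. coli* library 3 (0.79) or unstimulated library a (0.81). For the 12 tested ATF4 genes no departure was called by either tool, with 1 positive and 1 negative at an unadjusted p under 0.05.

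The change with IL-4 was tested against the change with IFN-γ, each taken from the unstimulated libraries of its own set, over 10671 genes in all 18 libraries. Of 32 genes, 2 had the higher and 14 the lower response to IL-4, against 13.0% and 14.7% of all genes. *Wars* was at -3.03 (SE 0.21, adjusted p = 1.67e-09). Of the ATF4 genes 10 of 12 were called lower, among them *Sesn2* at -1.64 (SE 0.20, adjusted p = 3.35e-06), *Slc3a2* at -1.35 (SE 0.18, adjusted p = 5.70e-06) and *Atf4* at -0.85 (SE 0.15, adjusted p = 0.00016). The 2 called higher were *Slc1a5* at 1.56 (SE 0.30, adjusted p = 0.000546) and *Vars* at 1.24 (SE 0.36, adjusted p = 0.014), the genes that fell most with IFN-γ. The median was -1.36 over the 12 ATF4 genes, -0.44 over the 19 other synthetases and 0.02 over all genes. Set and stimulus are tied here, so a difference between the sets in how a response is measured and a difference between the responses cannot be told apart.

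Other genes of these pathways were counted from lists. Of 20 genes for mitochondrial synthetases and their helpers, 12 were tested in the set of 12, and 0 rose and 6 fell with IFN-γ, 0 rose and 7 fell with both and 0 rose and 2 fell with *E. coli*, where 16.0%, 25.2% and 16.7% of all genes fell, with medians of -0.71, -0.86 and -0.16. With IL-4, 0 of 15 rose and 1 fell, beside 5.97% and 4.35% of all genes. With IFN-γ, both and *E. coli*, 15.6%, 23.9% and 13.5% of all genes rose. At an unadjusted p under 0.05, 0, 0, 1 and 1 were higher in these 4 comparisons, and by DESeq2 0 in each. Examples were *Tars2*, at -1.17 with IFN-γ and -1.42 with both, and *Cars2* at -1.70 with both. Of the 3 scaffold genes of the multi-synthetase complex, *Eef1e1* rose with *E. coli* by 1.11 (SE 0.18, adjusted p = 9.08e-05), and none was called with IFN-γ or both by edgeR or DESeq2, or at an unadjusted p under 0.05. With IL-4, 1 of the 2 tested fell, beside 4.35% of all genes.

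Of 27 further ATF4 and amino acid response genes, 18 were tested in the set of 12. With *E. coli* 6 rose and 1 fell, with IFN-γ 11 and 1, and with both 14 and 1, where 13.5%, 15.6% and 23.9% of all genes rose, with medians of 0.18, 1.09 and 1.94. Of all genes 16.7%, 16.0% and 25.2% fell. With IL-4, 4 of the 17 tested rose and 4 fell, beside 5.97% and 4.35% of all genes. *Slc7a11*, the cystine carrier, was at 2.47, 2.26 and 3.39 with *E. coli*, IFN-γ and both, and at -1.79 with IL-4. *Atf3*, a stress factor, was at 2.52 with IFN-γ and 3.38 with both, and *Mthfd1l*, a folate enzyme of mitochondria, at 3.18 and 3.89. *Stc2*, at or under 3 counts in each of unstimulated libraries a to c, was at least 5.09-fold higher with IFN-γ and at least 14.6-fold with both, against the mean floor of 3 counts per library.

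Of 12 genes for eIF2, its kinases, phosphatase and exchange factor, 11 were tested, and 2 rose and 2 fell with *E. coli*, 3 and 2 with IFN-γ and 3 and 4 with both, while 1 of 12 rose with IL-4. Of all genes 5.97% rose with IL-4. With the other stimuli 13.5%, 15.6% and 23.9% of all genes rose and 16.7%, 16.0% and 25.2% fell. Beside these shares the counts do not set the list apart. *Ppp1r15a*, the stress-induced subunit of the eIF2 phosphatase, was at 0.63 (SE 0.11, adjusted p = 0.00028) with IFN-γ and 1.39 (SE 0.11, adjusted p = 6.79e-09) with both. Of 8 tryptophan enzymes 2 were tested. *Ido1*, which degrades tryptophan, went from 1.18 ± 0.729 to 6.38 ± 1.37 CPM (mean ± SD, n = 3) with IFN-γ, a log2 fold change of 2.34 (SE 0.50, adjusted p = 0.00148), and IL-4 raised it at least 8.87-fold. The floor of 3 counts in unstimulated libraries a to c was 1.12, 1.90 and 1.24 CPM. The size of the *Ido1* change with IFN-γ is therefore uncertain. With *E. coli* 1 of the 2 enzymes tested fell. *Haao*, a later step of the same path, fell with IFN-γ, at -2.60 (SE 0.51, adjusted p = 0.000649). Of 10 other serine and folate genes 4 were tested, and 2 fell with *E. coli*, 1 under IFN-γ and 1 under both, while 0 rose with any of the 4 stimuli by edgeR, DESeq2 or an unadjusted p under 0.05. Of 6 genes by which mTORC1 senses amino acids 4 were tested, and 2 fell with *E. coli*, 1 under IFN-γ and 3 under both. *Sesn1*, a relative of *Sesn2*, was at -1.31 (SE 0.33, adjusted p = 0.00476) with *E. coli* and -1.34 (SE 0.35, adjusted p = 0.00693) with IFN-γ.

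Genes known to answer each stimulus were counted as controls. Of 16 IFN-γ response genes 15 rose with IFN-γ, with *Cxcl9* at 6.69, and 16 rose with both, while 1 rose and 9 fell with *E. coli* and 10 rose with IL-4. Of 9 *E. coli* response genes 9 rose with *E. coli*, with *Il1b* at 3.32, 7 rose with IFN-γ and 9 with both, and 5 rose and 1 fell with IL-4. Of 7 IL-4 response genes 6 rose with IL-4. *Ccl24* was at 1.52, the median of the 7, and the highest estimate was 5.07. In 2 of the 7 a group held at most 3 counts in each library, so sizes there are uncertain. Of the 5 tested in the set of 12, 3 rose under *E. coli*, 2 under IFN-γ and 4 under both. The shares of all genes that rose, with *E. coli* 13.5%, IFN-γ 15.6%, both 23.9% and IL-4 5.97%, stand beside these counts. Of all genes 16.7% fell with *E. coli* and 4.35% with IL-4. The lists did not answer 1 stimulus alone.

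Markers of other cell types were counted in every group. The 8 macrophage markers, each above 3 counts in at least 1 library (as is meant below) and led by *Csf1r* in the set of 12, summed to 796, 752 and 799 CPM in unstimulated libraries a to c, 560.1, 509 and 753 with *E. coli*, 1270.04, 1174 and 1184 with IFN-γ and 1047, 1142 and 1337 with both, and, led by *C1qb*, to 1394, 1737 and 1709 CPM in unstimulated libraries d to f and 1081, 1014 and 1109 with IL-4. The sums were higher in the 6 libraries with IFN-γ than in the 6 without it, and lower with IL-4 than in d to f. Single markers went otherwise. *Timd4* was at 54.99, 53.2 and 75.7 CPM in d to f and 81.8, 103 and 80.1 with IL-4, and *Gata6* at 10.8, 11.3 and 10.4 and 20.4, 15.5 and 13.998, both with each IL-4 library the higher. Of the 7 macrophage markers tested in the set of 12, 2 fell with *E. coli*, 4 rose and 1 fell under IFN-γ and 3 rose under both, and 3 of 8 fell with IL-4. For these and the marker counts that follow, the shares of all genes that rose and fell are 13.5% and 16.7% for *E. coli*, 15.6% and 16.0% for IFN-γ, 23.9% and 25.2% for both and 5.97% and 4.35% for IL-4. *Gata6* was at 5.22, 1.27 and 8.26 CPM in a to c and 1.68, 1.54 and 1.31 with IFN-γ, the lower by mean. The 6 B cell markers, all above 3 counts and led by *Ighm*, summed to 219, 195 and 119.8 CPM in unstimulated libraries a to c, 40.4, 46.1 and 77.5 with *E. coli*, 98.5, 62.02 and 61.5 with IFN-γ and 119.8, 132 and 128 with both, and to 24.4, 24.02 and 43.98 CPM in unstimulated libraries d to f and 64.9, 59.98 and 69.99 with IL-4. These sums were higher with IL-4 than in d to f, and lower with *E. coli* and with IFN-γ than in a to c. Of the 5 tested in the set of 12, 5 fell with *E. coli* and 4 with IFN-γ, and 5 had a positive interaction (median 2.68), while 3 of 4 rose with IL-4. Of all genes 2.58% were called for a positive interaction and 2.04% for a negative one.

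Of 8 neutrophil markers, led by *Retnlg*, 5 were above 3 counts in the set of 12, where *Ltf*, *Mpo* and *Elane* were not, and 8 in the set of 6. They summed to 558, 688 and 550.1 CPM in unstimulated libraries a to c, 353, 340.4 and 403 with *E. coli*, 680.1, 625 and 734 with IFN-γ and 331, 397 and 425 with both, and to 1994, 1945 and 1677 CPM in unstimulated libraries d to f and 779, 808 and 732 with IL-4. The sums with *E. coli* and with both lay below those of the unstimulated and the IFN-γ libraries, and those with IL-4 below d to f. *Retnlg* makes up most of each sum, and other markers went otherwise. *S100a8* was at 6.33, 9.51 and 9.91 CPM in a to c, 53.8, 40.5 and 122 with *E. coli*, 41.4, 32.3 and 43.8 with IFN-γ and 30.7, 50.95 and 83.8 with both, higher in all 9 stimulated libraries. *Ly6g* was at 4.47, 1.27 and 6.61 CPM in a to c, 20.2, 19.99 and 24.9 with IFN-γ and 16.1, 13.1 and 12.5 with both, with the 6 libraries with IFN-γ the higher. Of the 3 tested, 1 rose and 1 fell with *E. coli*, 2 rose with IFN-γ, and 2 rose and 1 fell with both. Of 6 mast cell markers, led by *Tpsb2*, 5 were above 3 counts in either set, without *Mcpt4* in the set of 12 and *Fcer1a* in the set of 6, and they summed to 9.69, 8.24 and 7.43 CPM in unstimulated libraries a to c, 10.2, 6.69 and 34.6 with *E. coli*, 30.2, 14.4 and 13.1 with IFN-γ and 36.5, 72.3 and 66.6 with both, and to 8.61, 6.63 and 7.36 CPM in unstimulated libraries d to f and 17.3, 7.98 and 20.7 with IL-4. The joint libraries had the highest sums, and of the 2 tested 1 rose with IFN-γ and 2 with both (median 3.05). Of 7 T cell markers 1 was above 3 counts in the set of 12 and 2 in the set of 6, led by *Cd3d*, with sums of 8.94, 6.34 and 3.72 CPM in unstimulated libraries a to c, 5.30, 3.68 and 5.92 with *E. coli*, 4.48, 4.61 and 4.58 with IFN-γ and 5.11, 7.12 and 3.96 with both, and of 5.55, 3.98 and 4.72 CPM in unstimulated libraries d to f and 6.09, 3.32 and 1.30 with IL-4. Of 6 proliferation genes 5 were above 3 counts in the set of 12, where they were led by *Mcm2* and *Birc5* was not, and 6 in the set of 6, led by *Mki67*. Their sums were 19.4, 16.5 and 19.8 CPM in unstimulated libraries a to c, 13.5, 20.4 and 20.2 with *E. coli*, 11.2, 10.8 and 7.19 with IFN-γ and 13.9, 10.96 and 8.57 with both, and 45.8, 25.2 and 35.7 CPM in unstimulated libraries d to f and 48.7, 45.9 and 46.4 with IL-4. The part of these cells in the changes of the synthetase and ATF4 genes was not tested.

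By position in GRCm38, *Wars* lies on chromosome 12 from 108860030 to 108894174 on the minus strand, with no exon of another gene over its exons and no near-identical copy. *Ddit3* and *Mars1* lie side by side on chromosome 10 on opposite strands, with overlapping exons, and *Shmt2* is on the same chromosome. Other genes overlap exons on the opposite strand of *Cars*, *Hars*, *Yars*, *Psph*, *Shmt2* and *Aars* as well, and a read set to the wrong strand there would be counted for the neighbour. Exons of *Exosc6* overlap those of *Aars* on the same strand, where the strand does not part the 2 genes. Stretches of at least 95% identity over 200 bases were found in 13 other places for *Phgdh*, 17 for *Yars*, 12 for *Eprs* and 1 for *Iars*.

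Promoters, from 250 bases before to 50 after the RefSeq start (GRCm38.p6), were on hand for 26 of the 35 genes, as 28 promoters. The 9 without an entry are *Wars*, *Cars*, *Hars*, *Lars*, *Nars*, *Rars*, *Vars*, *Slc7a5* and *Slc1a5*. The composite motif of ATF4 and C/EBP, TGATGNAA, was searched on both strands and found in 8 of the 28, beside 3.97% of 32851 promoters of the same length. The 8 genes are *Aars*, *Gars*, *Iars*, *Tars*, *Yars*, *Trib3*, *Chac1* and *Asns*. Of these *Aars*, *Trib3* and *Asns* rose with IFN-γ, *Yars* fell with both, *Gars*, *Iars* and *Tars* were called with none of the stimuli of the set of 12, *Gars* and *Tars* fell with IL-4, and *Chac1* was not tested. No match was found for *Dars*, *Eprs*, *Atf4*, *Atf5*, *Ddit3*, *Sesn2*, *Psat1*, *Mthfd2* and *Slc3a2*, which also rose with both stimuli. Whether the motif goes with the rise was not tested. A match is a description of letters and not a site. The promoters of *Asns*, *Trib3* and *Aars* are printed because these 3 genes rose under IFN-γ and under both and carry the motif, which is in capitals, on either strand, in each line.

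The *Asns* promoter lies at chr6:7693160-7693459 on the minus strand, with the motif starting 23 bases before the start, the *Trib3* promoter at chr2:152344011-152344310 on the minus strand, with the motif 15 bases after it, and the *Aars* promoter at chr8:111033592-111033891 on the plus strand, with the motif 112 bases before and 10 after it.
Asns: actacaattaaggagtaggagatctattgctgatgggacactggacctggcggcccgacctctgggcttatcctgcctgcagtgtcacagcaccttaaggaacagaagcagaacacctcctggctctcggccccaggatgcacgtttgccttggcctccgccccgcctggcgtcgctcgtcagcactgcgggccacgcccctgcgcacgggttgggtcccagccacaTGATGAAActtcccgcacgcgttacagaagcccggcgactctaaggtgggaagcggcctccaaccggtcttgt
Trib3: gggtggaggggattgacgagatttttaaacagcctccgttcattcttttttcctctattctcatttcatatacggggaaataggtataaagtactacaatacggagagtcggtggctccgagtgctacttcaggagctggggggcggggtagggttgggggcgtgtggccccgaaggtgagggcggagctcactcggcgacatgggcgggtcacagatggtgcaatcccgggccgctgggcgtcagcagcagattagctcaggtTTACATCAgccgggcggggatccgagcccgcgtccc
Aars: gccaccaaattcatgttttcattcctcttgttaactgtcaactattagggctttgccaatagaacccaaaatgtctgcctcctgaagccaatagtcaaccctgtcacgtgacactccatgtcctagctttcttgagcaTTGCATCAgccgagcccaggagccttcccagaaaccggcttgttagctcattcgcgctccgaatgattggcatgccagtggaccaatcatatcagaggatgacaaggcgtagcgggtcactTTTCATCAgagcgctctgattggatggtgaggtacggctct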

How the data were processed

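The authors deposited raw counts per Ensembl gene for each library. The submitters' notes name CEL-Seq2 libraries from 2 ng of RNA, Tophat2 2.1.0 with up to 2 mismatches to GRCm38 with the Ensembl 97 annotation and HTSeq 0.6.1, and also fastp 0.20.1 and STAR 2.7.2a without saying for which libraries. Genes and lists were chosen with earlier results of these data known. All 35 genes may be named, and from each other list at most 4 genes a comparison, those called with the largest change, and lists of 6 or fewer genes whole. The 5 genes closest to *Wars* were taken by Pearson's r of log2 CPM with a prior count of 2.

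Versions were DESeq2 1.42.0, edgeR 4.0.16, limma 3.58.1 and R 4.3.3. filterByExpr chose the genes, which were scaled by TMM and tested by edgeR's quasi-likelihood F test with Benjamini-Hochberg adjustment over all genes tested, 9883 in the set of 12 libraries and 10556 in the set of 6. SEs were derived from the fold change and F. A level of 3 counts, 1.10 to 1.97 CPM in the set of 12 and 0.463 to 0.828 in the set of 6 before scaling, was taken as the floor. It covers counting error only, since amplified reads are not independent molecules. In the set of 12, 18.9% to 37.6% of counts fell on no gene, and the set of 6 gives no such counts. No count in the set of 12 is above 4095, while the set of 6 reaches 191131, so that the sets may not share a unit, reads or molecules.

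Alternatives were DESeq2's size factors, DESeq2, leaving out each library, a filter at 10 counts in every library, no filter on low counts, a change also of at least a factor of 2, only the 6 libraries compared, the 6 unstimulated libraries as one group, all 18 libraries in one model and the replicate number as a block. Chosen after seeing the data were a correction of the counts for a ceiling of 4096 and the 9 stimulated libraries without a block. Positions are from GENCODE M21 and promoters from RefSeq.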

Additional observations from a re-analysis of the deposited data

Results flagged for a closer look

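The effect of *E. coli* on *Farsb* differed between cells with and without IFN-γ, by a log2 departure of -1.20 (SE 0.27, adjusted p = 0.0129). Without IFN-γ, *Farsb* rose with *E. coli*, from 21.98, 27.3 and 26.8 CPM to 39.2, 34.8 and 35.1 CPM. With IFN-γ it was at 17.4, 19.5 and 23.5 CPM without *E. coli* and 12.4, 13.1 and 11.9 with it. The departure was called whichever 1 library was left out. Exons of *Sgpp2* overlap *Farsb* on the opposite strand, and the part of that gene in these counts was not tested.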

How the results depend on the processing

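*Wars* with IFN-γ and with both stimuli, alone and against *E. coli*, was called in the same direction under every alternative run. The counts of genes higher or lower with both stimuli stayed within 1.5 times of 15 and 4 in each, though single calls were lost. Leaving out 1 library in turn moved these *Wars* log2 fold changes from 3.16 to 3.43, 3.41 to 3.67 and 3.91 to 4.097. In the same way *Wars* ran from -0.57 to -0.30 with *E. coli*, 0.17 to 0.48 with IL-4, 0.18 to 0.30 for both against IFN-γ, 0.55 to 0.81 for the interaction and -3.16 to -2.86 for IL-4 against IFN-γ. The counts of genes higher and lower ran from 5 to 10 and 1 to 3 with *E. coli*, 9 to 13 and 2 to 4 with IFN-γ, 13 to 16 and 3 to 5 with both and 0 to 2 and 0 to 6 with IL-4. Calls in either direction ran from 4 to 10 for both against IFN-γ, 14 to 16 for both against *E. coli*, 1 to 2 for the interaction and 11 to 17 for IL-4 against IFN-γ.

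With no filter on low counts, 1 gene fell with *E. coli*, and *Wars* was -0.39 and not called. With at least 10 counts in every library, which leaves fewer genes, 1 gene rose with IL-4, 10 were called for IL-4 against IFN-γ, and 2 for the interaction, with *Wars* at 0.69. DESeq2 called 2 for the interaction, with *Wars* at 0.67. A correction for a ceiling on counts, chosen after seeing the data, also called 2, with *Wars* at 0.71. Under that correction 8 genes rose with *E. coli*. With a factor of 2 asked for as well, 1 rose and 0 fell with *E. coli* (*Wars* -0.43), 5 rose with IFN-γ, 0 fell with IL-4, and 4 and 6 were called for both against IFN-γ and against *E. coli*. Of the calls with both against unstimulated libraries, that factor removed *Dars*, *Eprs*, *Rars*, *Atf4*, *Ddit3* and *Yars*. With only the 6 libraries compared, 10 genes rose with *E. coli*, among them *Aars* (0.50), *Dars* (0.36) and *Hars* (0.42), and *Wars* was -0.40 and not called. With all 18 libraries in one model, 2 rose and 7 fell with IL-4. Apart from the smaller number of genes and the added factor, the cause was not tested.

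With the 6 unstimulated libraries as one group, 2 rose and 1 fell with *E. coli* (*Wars* -0.39), 6 rose with IFN-γ, and 1 rose and 1 fell with IL-4. Calls with both stimuli were lost for *Dars*, *Rars*, *Yars*, *Atf4*, *Psat1* and *Slc3a2*. Directions turned for *Farsb* (-0.19), *Psat1* (-1.26), *Slc3a2* (-0.47), *Cars2* (0.00646) and *Atf3* (-0.27) with *E. coli*, for *Atf4* (-0.27), *Psat1* (-0.63), *Slc3a2* (-0.21) and *Chil3* (-1.47) with IFN-γ, for *Chil3* (-1.02) with both, and for *Slc3a2* (0.10) and *Irgm1* (-0.20) with IL-4. This comparison mixes the sets, and the cause was not tested.

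With the replicate number as a replicate block among the 9 stimulated libraries, 10 and 16 genes were called for both against IFN-γ and against *E. coli*, with *Wars* at 0.24 and 3.97, beside 8 and 16 without the block. Beside the fit of the 12 libraries, 1 call was gained and 1 was lost with the block. Nothing in the labels says that the numbers mark pairs. Residuals correlated across genes at -0.0450, 0.212 and 0.331 between IFN-γ and joint libraries and at 0.0706, 0.0986 and 0.163 between *E. coli* and joint libraries, where libraries with different numbers reached 0.266 and 0.197. *Chac1*, *Phgdh* and *Psph*, and *Asns* with IL-4, had too few counts to test, and with at least 10 counts in every library other genes had no value.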
